A study of Mus musculus with 12 samples.

Results

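The effect of IL-13 was measured in bone marrow-derived macrophages (BMDMs) that were treated with Dickkopf1 (DKK1) at the same time. BMDMs are macrophages grown in culture from bone marrow cells in M-CSF, here from wild-type C57BL/6 mice (C57Bl/6J in the study's methods) of 8 to 10 weeks. The comparison sets BMDMs given IL-13 at 2 ng/ml together with DKK1 at 30 ng/ml for 24 h (IL-13 + DKK1, n = 3) against BMDMs given DKK1 alone at the same dose and time (DKK1, n = 3). These are 6 of the 12 libraries of the series, chosen by their treatment labels. The other 6 came from BMDMs given IL-13 alone at 2 ng/ml for 24 h (n = 3) and from untreated BMDMs (n = 3), for which no time is given. They share no library with the comparison and serve to ask whether the IL-13 effect differed when DKK1 was absent. All groups share the wild-type genotype and the culture. The labels give 3 numbered samples a group and do not say whether they came from separate mice, so p-values measure the spread between these samples.

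IL-13 is a type 2 cytokine that binds a receptor made of the IL-4 receptor α chain and the IL-13 receptor α1 chain. The receptor activates Janus kinases and the transcription factor STAT6, which turns on genes of alternative activation such as Arg1, Mrc1, Chil3 and Retnla, while SOCS proteins feed back on the kinases. DKK1 is a secreted antagonist of canonical Wnt signaling that binds the coreceptors LRP5 and LRP6 and is released by thrombocytes among other cells. Macrophages activated in this way are known for their part in tissue repair, fibrosis and the defence against helminths.

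A whole culture was sequenced in each library, so fewer cells of a kind and less RNA per cell cannot be told apart. The deposited raw counts summed to 34153721, 40917086 and 38233358 in the IL-13 + DKK1 libraries and to 35026632, 33587248 and 32224036 in the DKK1 libraries, and 16306 of 17723 genes passed the filter on low counts. Levels are given as CPM, counts relative to the library total after TMM scaling, and they compare libraries within a gene but not genes with each other. Macrophage genes were high in both groups. Csf1r, the M-CSF receptor, had 4595, 4515 and 4556 CPM in IL-13 + DKK1 and 6367, 5865 and 6136 CPM in DKK1, and Adgre1, a widely used macrophage surface marker, had 3895, 3764 and 3737 CPM and 3223, 3229 and 3211 CPM in the same groups. Lyz2, a lysozyme gene, stood at 23502, 23540 and 22595 CPM in IL-13 + DKK1 and at 32036, 32038 and 32428 CPM in DKK1. The first principal component of the 6 libraries held 50.2% of the variance.

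Markers of other cell types were low, with exceptions that moved with the treatment. All 9 neutrophil markers were tested, and their summed level was 719 to 887 CPM in IL-13 + DKK1 and 521 to 551 CPM in DKK1. Of the 9, 8 had a positive log2 fold change, and the median was 0.66. At the adjusted p alone 5 were higher and 1 was lower. S100a9, which encodes a calcium-binding protein of neutrophils and monocytes, had 278, 226 and 228 CPM in IL-13 + DKK1 and 153, 158 and 152 CPM in DKK1. Mmp8, a neutrophil collagenase and the marker of this list that was called, went the other way, with 38.4, 26.0 and 28.7 CPM in IL-13 + DKK1 and 70.6, 58.8 and 66.3 CPM in DKK1 (log2 fold change -1.08), a call lost without IL-13 + DKK1 replicate 2. Ly6g, the defining surface marker of neutrophils, averaged 0.257 CPM in IL-13 + DKK1 and 0.148 CPM in DKK1. Of the 8 markers of megakaryocytes and platelets, 5 were tested, and nearly all of their summed level, 3866 to 4058 CPM in IL-13 + DKK1 and 2187 to 2568 CPM in DKK1, came from Pf4, a chemokine gene described among the CXC ligands. The 3 tested B cell markers summed to 3.90 to 4.23 CPM in IL-13 + DKK1 and 4.50 to 6.46 CPM in DKK1. The single tested markers of T and NK cells (Cd4), mast cells (Kit) and erythroid cells (Epor) did not exceed 14.8 CPM in any of the 6 libraries. The 7 tested stromal markers summed to 153 to 174 CPM in IL-13 + DKK1 and 101 to 139 CPM in DKK1. The 4 tested eosinophil markers summed to 25 to 28.4 CPM in IL-13 + DKK1 and 9.92 to 11.9 CPM in DKK1, and Ccr3 among them was called higher. The 5 tested dendritic cell markers summed to 419 to 424 CPM in IL-13 + DKK1 and 319 to 368 CPM in DKK1. Most of that sum was Bst2, and Zbtb46, which was under 1 CPM in each of the 6 libraries, was called higher, a call lost without IL-13 + DKK1 replicate 2, DKK1 replicate 1 or DKK1 replicate 2. The part of these markers in the results that follow was not tested.

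A gene was called when edgeR's quasi-likelihood test across all genes gave a Benjamini-Hochberg adjusted p under 0.05 and the log2 fold change, IL-13 + DKK1 over DKK1, was above 1 in size. By this rule 898 genes (5.51% of those tested) were called, of which 525 (3.22%) were higher and 373 (2.29%) were lower with IL-13 + DKK1. The adjusted p alone passed 3293 higher genes (20.2%) and 3115 lower genes (19.1%), and the median log2 fold change of all tested genes was 0.0053. These shares over all tested genes are the reference for the counts of called list members given below. The called higher genes took 2.47% to 2.53% of all counts in IL-13 + DKK1 and 0.742% to 0.808% in DKK1. The called lower genes took 0.805% to 0.815% in IL-13 + DKK1 and 2.01% to 2.15% in DKK1. The 3 replicates of each group lay close together, with a common biological coefficient of variation of 0.0612.

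**Figure D1:**
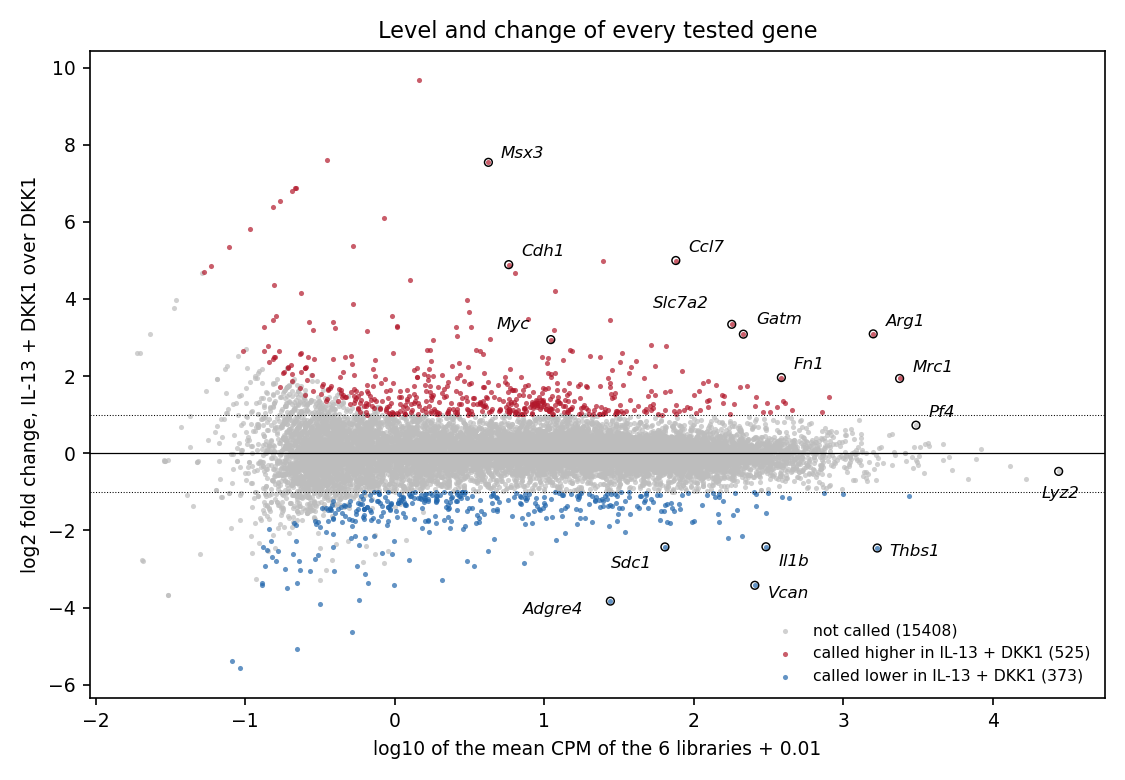
Each point is a tested gene, with log10 of its mean CPM over the 6 libraries (plus 0.01) on the x axis and the log2 fold change, IL-13 + DKK1 over DKK1, on the y axis; dotted lines mark a log2 fold change of 1 in either direction. Red points are the 525 genes called higher, blue points the 373 called lower, and the named genes Arg1 (3.10) and Mrc1 (1.94) stand among the most abundant of the red points, Thbs1 (-2.46) among the most abundant of the blue.

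The genes with the smallest p-values included amino acid and signaling genes. Slc7a2, which encodes a transporter of cationic amino acids such as arginine, had 336, 330 and 318 CPM in IL-13 + DKK1 and 31.1, 30.9 and 35.1 CPM in DKK1, a 10.1-fold difference of means and a log2 fold change of 3.34 (SE 0.07, edgeR adjusted p = 7.77e-19). Gatm, the arginine:glycine amidinotransferase of creatine synthesis, had 423, 376 and 357 CPM in IL-13 + DKK1 and 45.2, 48.1 and 42.7 CPM in DKK1, a log2 fold change of 3.09 (SE 0.06, edgeR adjusted p = 1.32e-19). Dusp4, a phosphatase that acts on MAP kinases, had 51.6, 52.0 and 49.0 CPM and 4.71, 4.85 and 4.44 CPM in the same groups (log2 fold change 3.44, SE 0.07). In each of the 3 genes the replicates differed by far less than the groups. Fyn, a Src family kinase, rose by 1.82, Hip1, an endocytic adaptor, by 1.76 and Secisbp2l, a relative of the selenocysteine insertion factor, by 1.37 on the log2 scale.

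Among called genes whose mean reached 100 counts, the homeobox gene Msx3 had the largest fold change, and it was nearly silent in DKK1. It held 944 counts in the IL-13 + DKK1 libraries together and 4 in the DKK1 libraries, a ratio of 202 for which the 95% interval from counting error ran between 78.6 and 743. That interval treats counts as independent reads, which low counts here may not be, so it may be too narrow. The levels of Msx3 were 8.42, 7.70 and 9.15 CPM in IL-13 + DKK1 and 0 to 0.0653 CPM in DKK1. Further called genes of large rises were Cst7, cystatin F (log2 fold change 3.28), and Peg10, an imprinted gene derived from a retrotransposon (2.96).

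Among the genes that fell, Adgre4, an adhesion receptor gene of the same family as Adgre1, had 2.84, 4.40 and 3.58 CPM in IL-13 + DKK1 and 49.9, 59.6 and 46.2 CPM in DKK1, a log2 fold change of -3.83 (SE 0.13, edgeR adjusted p = 1.32e-15). Sdc1, the heparan sulfate proteoglycan syndecan-1, had 20, 20.9 and 19.5 CPM in IL-13 + DKK1 and 123, 99.9 and 102 CPM in DKK1 (-2.43, SE 0.07). The groups did not overlap in either gene. Further genes that fell were Sort1, the sorting receptor sortilin (log2 fold change -1.76), Emb, a membrane partner of monocarboxylate transporters (-1.55), and Pirb, an inhibitory receptor for MHC class I (-1.07). The same was seen for Hal, the histidine ammonia-lyase (-2.91), and Arhgef37, a guanine nucleotide exchange factor (-2.85). Of all tested genes, 23.9% had every IL-13 + DKK1 library below every DKK1 library and 25.3% had every one above, so a lack of overlap in a single gene is common here.

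The receptor and STAT6 genes changed little, while some SOCS genes rose. Of 13 tested receptor chain and STAT6 signaling genes, 0 were called higher and 1 lower by edgeR, with 3 higher and 7 lower at the adjusted p alone and a median log2 fold change of -0.10. The called gene was Il13ra1, the chain that binds IL-13, with 23.9, 21.9 and 25.3 CPM in IL-13 + DKK1 and 59.2, 63.9 and 66.7 CPM in DKK1 (log2 fold change -1.42, SE 0.07, edgeR adjusted p = 1.54e-12). Il4ra, the shared receptor chain, had 1104, 1080 and 1117 CPM in IL-13 + DKK1 and 1174, 1075 and 1136 CPM in DKK1, and these values overlap. Stat6 had 277 to 280 CPM in IL-13 + DKK1 and 274 to 281 CPM in DKK1. The log2 fold changes of Jak2 (0.68) and of Ptprc, the phosphatase CD45 (-0.88), were past the adjusted p but not the fold threshold.

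Of the 8 SOCS family genes, which encode inhibitors induced by cytokine receptors, 3 were called higher and 0 lower. Socs1, whose product binds and inhibits Janus kinases, had 40.1, 40.1 and 40.6 CPM in IL-13 + DKK1 and 6.19, 7.94 and 7.44 CPM in DKK1 (log2 fold change 2.49, SE 0.10, edgeR adjusted p = 1.32e-14). Cish, a known target of STAT5 signaling, had 8.89, 10.3 and 9.80 CPM in IL-13 + DKK1 and 3.26, 2.84 and 3.23 CPM in DKK1 (1.64, SE 0.16). The rise of Socs2 was 1.25 on the log2 scale. Socs3, an inhibitor of gp130 receptors such as that of IL-6, went the other way with 98.3, 101 and 104 CPM in IL-13 + DKK1 and 200, 202 and 200 CPM in DKK1. Its log2 fold change of -0.99 lay just inside the fold threshold. It passed the threshold at -1.01 with the size factors of DESeq2, and at -1.02 without IL-13 + DKK1 replicate 3. Without DKK1 replicate 1 it was -1.01, and without DKK1 replicate 3 it also passed.

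Most markers of alternative activation rose. Of 24 tested markers 17 were called higher and 1 was called lower with IL-13 + DKK1, and their median log2 fold change was 1.90, against 0.0053 for all tested genes. Arg1, the arginase that hydrolyses arginine to ornithine and urea (GRCm39 chromosome 10, 24791118 to 24803817), had 2861, 2838 and 2855 CPM in IL-13 + DKK1 and 354, 284 and 362 CPM in DKK1. This was an 8.54-fold difference of means and a log2 fold change of 3.10 (SE 0.16, edgeR adjusted p = 1.54e-12). Mrc1, the mannose receptor CD206 (chromosome 2, 14234151 to 14336926), had 3494, 3918 and 3963 CPM in IL-13 + DKK1 and 875, 1053 and 1040 CPM in DKK1, a log2 fold change of 1.94 (SE 0.06, edgeR adjusted p = 2.72e-16). Both genes were already abundant in DKK1, and no library of one group reached the range of the other. Every IL-13 + DKK1 library was above every DKK1 library in 25.3% of all tested genes.

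Chil3, the chitinase-like protein Ym1, had 206, 193 and 191 CPM in IL-13 + DKK1 and 59.3, 52.7 and 49.1 CPM in DKK1 (log2 fold change 1.87, SE 0.07). Reads of Chil3 and of its close copy Chil4 may be shared between them. Clec7a, the β-glucan receptor Dectin-1, had 339, 360 and 345 CPM in IL-13 + DKK1 and 108, 103 and 103 CPM in DKK1 (1.74, SE 0.04). Fn1, fibronectin, had 532, 642 and 673 CPM and 158, 164 and 152 CPM in the same groups (1.96, SE 0.12). These genes were well expressed in both groups, as were Igf1, insulin-like growth factor 1, which rose by 1.11, and Tgm2, a transglutaminase, which rose by 1.19 on the log2 scale.

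Other markers were near silent in DKK1 and were measured clearly in IL-13 + DKK1. Cdh1, E-cadherin, had 11.9, 11.3 and 10.4 CPM in IL-13 + DKK1 and 0.423, 0.371 and 0.326 CPM in DKK1 (log2 fold change 4.89, SE 0.20). Flt1, a receptor for vascular endothelial growth factors, had 22, 22.4 and 22.6 CPM in IL-13 + DKK1 and 1.03, 1.05 and 1.57 CPM in DKK1 (4.20, SE 0.13). Pdcd1lg2, the checkpoint ligand PD-L2, had 5.08, 6.12 and 6.22 CPM in IL-13 + DKK1 and 0.423, 0.463 and 0.490 CPM in DKK1 (3.66, SE 0.21). The remaining low genes that rose included Ch25h, the cholesterol 25-hydroxylase (3.96), Mgl2, a galactose-binding lectin (3.28), Tmem26 (2.39) and Ear2, an eosinophil-type ribonuclease (2.34). Vegfa, vascular endothelial growth factor A, was the marker called lower, with 33.3, 43.3 and 39.3 CPM in IL-13 + DKK1 and 110, 113 and 109 CPM in DKK1 (-1.51, SE 0.08).

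**Figure D2:**
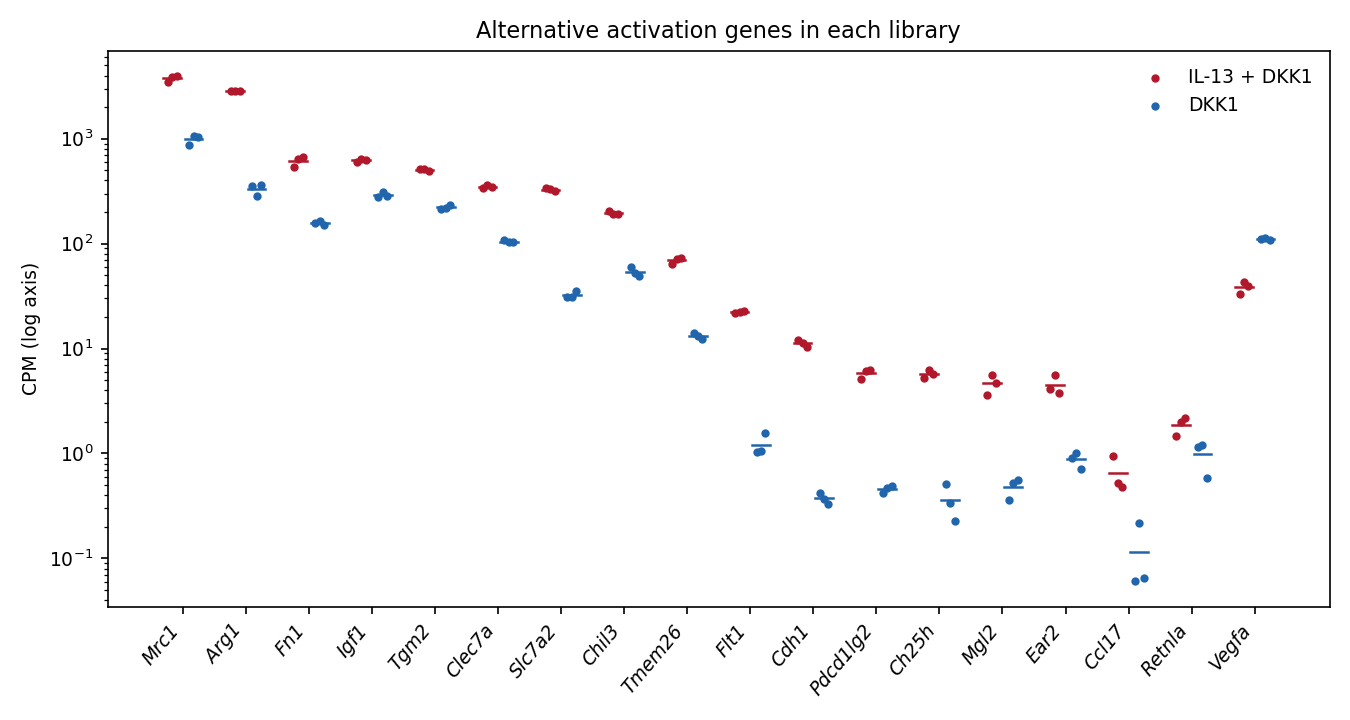
Each dot is the CPM of a library on a log axis, with IL-13 + DKK1 in red to the left and DKK1 in blue to the right within each gene, and bars at the means of the 3 libraries. The red dots lie above the blue dots in all genes drawn except Vegfa, and by the smallest ratio in Retnla (1.48 to 2.16 CPM in IL-13 + DKK1, 0.587 to 1.2 CPM in DKK1).

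Retnla, which encodes the resistin-like molecule RELMα and is a classic STAT6 target in mouse macrophages, was not among the genes called. Its levels were 1.48, 1.98 and 2.16 CPM in IL-13 + DKK1 and 1.15, 1.2 and 0.587 CPM in DKK1, a log2 fold change of 0.93 (SE 0.38, edgeR adjusted p = 0.056). In BMDMs without DKK1 the same gene had 219, 345 and 327 CPM with IL-13 and 1.34, 0.772 and 1.18 CPM untreated, a log2 fold change of 8.06. The difference between these IL-13 effects, with DKK1 minus without, was -7.13 on the log2 scale (SE 0.60, edgeR adjusted p = 7.3e-09). Retnla stood near the level of untreated BMDMs in both groups that received DKK1.

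The eosinophil-type ribonuclease gene Rnase2a was also near silent in both groups. It had 0.118, 0.247 and 0.316 CPM in IL-13 + DKK1 and 0.0604, 0.124 and 0 CPM in DKK1, which is 26 against 6 counts. Their ratio was 3.71, and its 95% interval from counting error ran between 1.49 and 11, which may also be too narrow. Without DKK1, Rnase2a had 12.2, 20.9 and 22.5 CPM with IL-13 and 0.0535 to 0.119 CPM untreated. The difference of the IL-13 effects was -6.07 on the log2 scale (SE 1.34, edgeR adjusted p = 0.0015). It was not called without DKK1 replicate 2 (-5.19, edgeR adjusted p = 0.0894), and it rests on few counts. Of the 11 tested resistin-like, chitinase-like and eosinophil-type ribonuclease genes, 3 were called higher and 1 lower. The gene called lower, Retnlg (-1.01), lay at the fold threshold and was not called without IL-13 + DKK1 replicate 3, without DKK1 replicate 1 or with library size only. Rnase4, a ribonuclease of many cell types, had 196 to 201 CPM in IL-13 + DKK1 and 108 to 117 CPM in DKK1.

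The type 2 chemokine genes Ccl17 and Ccl22, ligands of CCR4, stayed low. Ccl17 had 0.946, 0.519 and 0.474 CPM in IL-13 + DKK1 and 0.0604, 0.216 and 0.0653 CPM in DKK1, with 71 and 11 counts in all (log2 fold change 2.45, SE 0.56, edgeR adjusted p = 0.00157), and the fold change was 3.27 without DKK1 replicate 2. Without DKK1 the gene had 142 counts with IL-13 and 0 counts untreated, which is at least 48.1-fold higher when 3 counts over the untreated group are taken as the floor. Ccl22 had 6.97, 6.08 and 5.75 CPM in IL-13 + DKK1 and 3.50, 4.26 and 4.83 CPM in DKK1. Its log2 fold change of 0.58 was not called, and the difference from the IL-13 effect without DKK1 was -3.53 (SE 0.30, edgeR adjusted p = 9.4e-09).

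STAT6 binds palindromes in which TTC and GAA are 4 bases apart, and STAT proteins in general also bind those with a spacing of 3 bases, so the 250 bases before the transcription start of each tested gene were searched on GRCm39. A match reads the same on both strands, and the 2 motifs can overlap. The motif with the 4-base spacing was present in 33 of 524 promoters of genes called higher (6.3%), in 29 of 370 of genes called lower (7.84%) and in 883 of 16245 of all tested genes (5.44%). Either motif was present in 12.6% of the promoters of genes called higher, 14.3% of those called lower and 11.7% of all. The promoters of IL-13 target genes that rose in IL-13 + DKK1 (Socs1, Cish, Pdcd1lg2, Ccl17, Chil3) and of Retnla, which was not called, are printed to show where such matches lie. They were chosen among genes with a match, and the windows of Arg1, Mrc1, Slc7a2, Gatm, Egr2, Irf4, Cdh1, Flt1, Mgl2 and Ear2, which also rose, hold 0 matches of either motif. They run 5′ to 3′ on the strand of the gene and end at the base before the start, with matches in capitals.
Retnla, chr16:48662645-48662894, plus strand: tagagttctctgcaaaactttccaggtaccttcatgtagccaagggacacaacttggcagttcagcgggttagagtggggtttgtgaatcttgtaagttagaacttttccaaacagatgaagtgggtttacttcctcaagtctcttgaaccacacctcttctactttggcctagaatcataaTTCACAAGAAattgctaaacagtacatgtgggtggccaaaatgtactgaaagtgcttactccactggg
Pdcd1lg2, chr19:29388069-29388318, plus strand: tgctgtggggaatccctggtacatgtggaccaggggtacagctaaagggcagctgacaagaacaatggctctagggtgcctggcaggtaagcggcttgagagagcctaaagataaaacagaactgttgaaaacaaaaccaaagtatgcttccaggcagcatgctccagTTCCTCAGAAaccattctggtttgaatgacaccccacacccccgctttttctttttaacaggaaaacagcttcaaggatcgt
Ccl17, chr8:95536825-95537074, plus strand: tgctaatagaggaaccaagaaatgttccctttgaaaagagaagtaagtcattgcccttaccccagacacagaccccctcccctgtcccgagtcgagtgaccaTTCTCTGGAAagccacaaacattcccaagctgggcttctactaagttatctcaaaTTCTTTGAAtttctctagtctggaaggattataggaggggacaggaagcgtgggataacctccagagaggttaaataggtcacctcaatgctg
Socs1, chr16:10603876-10604125, minus strand: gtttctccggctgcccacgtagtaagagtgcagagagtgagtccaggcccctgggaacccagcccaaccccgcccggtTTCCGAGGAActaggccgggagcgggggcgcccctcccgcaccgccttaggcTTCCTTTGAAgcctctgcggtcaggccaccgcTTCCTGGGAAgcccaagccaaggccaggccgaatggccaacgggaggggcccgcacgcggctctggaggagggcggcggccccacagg
Cish, chr9:107172975-107173224, plus strand: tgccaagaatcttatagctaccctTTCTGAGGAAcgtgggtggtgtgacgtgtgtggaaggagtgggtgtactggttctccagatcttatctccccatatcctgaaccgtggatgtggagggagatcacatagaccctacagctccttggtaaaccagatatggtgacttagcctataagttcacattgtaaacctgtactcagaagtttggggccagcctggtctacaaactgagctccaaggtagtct
Chil3, chr3:106074881-106075130, minus strand: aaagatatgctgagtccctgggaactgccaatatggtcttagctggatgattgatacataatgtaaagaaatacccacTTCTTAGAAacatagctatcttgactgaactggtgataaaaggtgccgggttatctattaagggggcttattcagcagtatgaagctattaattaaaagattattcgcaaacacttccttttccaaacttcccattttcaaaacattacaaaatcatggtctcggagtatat

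The Retnla window holds 1 match with the 4-base spacing that begins 68 bases before the start, and that of Pdcd1lg2, which rose, holds 1 that begins 82 bases before it. Socs1 holds 3, at 172, 120 and 88 bases, and Cish holds 1 at 226 bases. Ccl17 holds 1 match of each motif, at 148 and 93 bases, and Chil3 holds 1 of the shorter motif at 172 bases. These are matches of letters and not measured binding sites.

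Some arginine and polyamine genes rose beside Arg1. Of 17 tested genes 5 were called higher, 0 lower and 12 neither way, with 10 higher and 3 lower at the adjusted p alone and a median log2 fold change of 0.54. A test against the fold threshold itself (TREAT) called 3 higher. Odc1, the ornithine decarboxylase that starts polyamine synthesis, had 43.2, 45.7 and 46.7 CPM in IL-13 + DKK1 and 17.5, 19.6 and 20.4 CPM in DKK1 (log2 fold change 1.24, SE 0.08, edgeR adjusted p = 4.62e-11). Slc7a1, the second cationic amino acid transporter of the list, rose by 1.13 on the log2 scale. Oat, which turns ornithine towards proline, had 126 to 131 CPM in IL-13 + DKK1 and 85.7 to 91.1 CPM in DKK1 and was past the adjusted p only. Ass1, which makes argininosuccinate from citrulline, was not called, with 25.6, 32.7 and 29.5 CPM in IL-13 + DKK1 and 48.1, 41.6 and 36.8 CPM in DKK1.

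Of 26 tested transcription factors linked to alternative activation, 6 were called higher and 0 lower. Egr2, a zinc finger factor induced by IL-4 and IL-13, had 17.9, 22.7 and 22.5 CPM in IL-13 + DKK1 and 2.78, 2.13 and 1.99 CPM in DKK1 (log2 fold change 3.19, SE 0.13, edgeR adjusted p = 1.84e-14). Myc, a driver of growth and proliferation, had 21.4, 19.6 and 17.9 CPM in IL-13 + DKK1 and 2.60, 2.22 and 2.81 CPM in DKK1 (2.95, SE 0.12, edgeR adjusted p = 3.32e-14). Klf4 rose by 1.75, Bhlhe40 by 1.74 and Irf4, a factor downstream of STAT6, by 1.5 on the log2 scale. Maf, a factor of macrophage identity, moved less, with 707 to 755 CPM in IL-13 + DKK1 and 571 to 609 CPM in DKK1. Pparg, the lipid-sensing nuclear receptor, stayed under 5.3 CPM in the 6 libraries and was not called (0.79).

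Id1, an inhibitor of basic helix-loop-helix factors and a target of BMP signaling, had 91.8, 92.8 and 87.3 CPM in IL-13 + DKK1 and 5.98, 11.9 and 21.3 CPM in DKK1. The log2 fold change was 2.80 (SE 0.21, edgeR adjusted p = 4.21e-10). The IL-13 + DKK1 libraries lay within a narrow range, while the DKK1 libraries were spread over more than 3-fold and did not reach them.

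Cell cycle genes rose as a block. All 34 tested genes of DNA replication and S phase were higher in IL-13 + DKK1 at the adjusted p, and 23 of them were called, with a median log2 fold change of 1.17. Over all tested genes 20.2% were higher at the adjusted p and 3.22% were called higher. Mcm5, a subunit of the replicative helicase, had 77.2, 74.9 and 70.6 CPM in IL-13 + DKK1 and 17.8, 22 and 18.1 CPM in DKK1 (log2 fold change 1.94, SE 0.07, edgeR adjusted p = 2.43e-15). Rrm2, the ribonucleotide reductase subunit that supplies deoxynucleotides, had 44.1, 42.7 and 41.5 CPM and 12.4, 11.6 and 12.3 CPM in the same groups (1.82, SE 0.07). Uhrf1, which keeps DNA methylation through replication, rose by 2.16 and the helicase subunit Mcm6 by 1.6 on the log2 scale. Pcna, the sliding clamp, was past the adjusted p with a log2 fold change of 0.88.

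The 31 mitosis genes were also all higher at the adjusted p, but by less, with a median of 0.89 and 8 genes called. Many lie near the fold threshold, and the number called was 4 without DKK1 replicate 3 and 13 without DKK1 replicate 2, and TREAT called 0. Top2a, the topoisomerase of chromosome segregation, had 155, 153 and 145 CPM in IL-13 + DKK1 and 63.7, 78.2 and 65.3 CPM in DKK1 (log2 fold change 1.13, SE 0.10). Mki67, the proliferation antigen Ki-67, had 178, 194 and 180 CPM in IL-13 + DKK1 and 122, 126 and 112 CPM in DKK1 (0.62, SE 0.09). Ccnd1, cyclin D1 of the G1 phase, moved more than any of the mitosis genes, with 25.2, 26.1 and 26.4 CPM in IL-13 + DKK1 and 3.96, 4.23 and 3.88 CPM in DKK1 (2.68, SE 0.11, edgeR adjusted p = 1.65e-14).

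**Figure D3:**
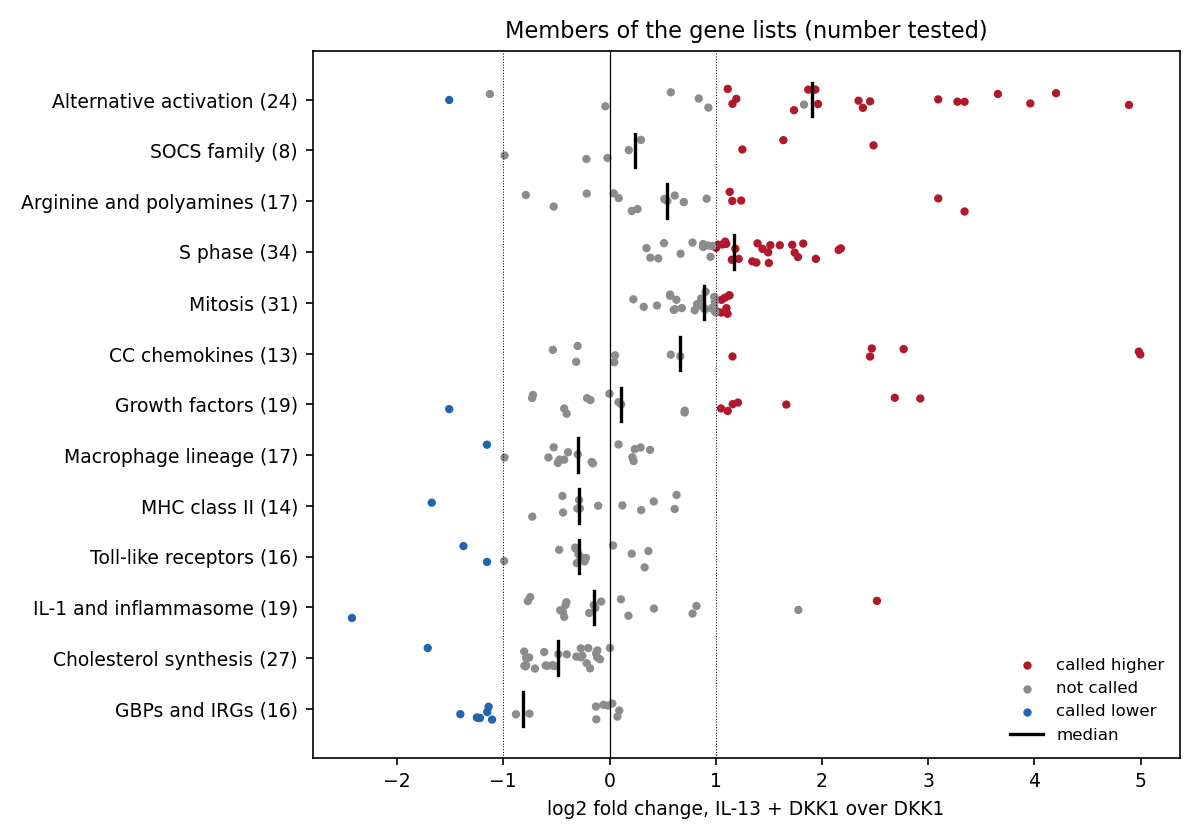
Each dot is a tested member of a gene list, placed by its log2 fold change, IL-13 + DKK1 over DKK1, with red for called higher, blue for called lower and gray for not called; black bars are the list medians, and dotted lines mark a log2 fold change of 1 in either direction. The S phase and mitosis genes all lie to the right of 0 (medians 1.17 and 0.89), alternative activation markers have the highest median drawn (1.90), and GBPs and IRGs lie mostly to the left (median -0.82). The row of Toll-like receptors also holds Cd14.

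Several CC chemokine genes of a cluster on chromosome 11 rose. Of 13 tested CC chemokine ligands 6 were called higher and 0 lower. Ccl7, a ligand of CCR1, CCR2 and CCR3 (chromosome 11, 81936532 to 81938351), had 137, 153 and 153 CPM in IL-13 + DKK1 and 3.81, 4.29 and 5.81 CPM in DKK1, a 31.8-fold difference of means and a log2 fold change of 5.00 (SE 0.11, edgeR adjusted p = 3.71e-18). Ccl8 (chromosome 11, 82006007 to 82007625) had 42.8, 47.9 and 53.3 CPM in IL-13 + DKK1 and 2.42, 1.05 and 1.04 CPM in DKK1 (4.98, SE 0.21). Ccl2, the main ligand of CCR2, had 110, 114 and 121 CPM and 13.3, 19.5 and 17.8 CPM in the same groups (2.77, SE 0.11). Ccl12 rose by 2.47 on the log2 scale. Ccl2, Ccl7, Ccl8 and Ccl12 are close copies that lie together between 81926397 and 82007625 of chromosome 11, and the counting may have shared reads between them.

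Ccl5, Ccl6 and Ccl9 lie further along chromosome 11, between 83416602 and 83483913, and none of them was called. Ccl5 (RANTES) had 422, 429 and 425 CPM in IL-13 + DKK1 and 445, 390 and 396 CPM in DKK1, and the groups overlapped. Ccl9 had 1156 to 1195 CPM in IL-13 + DKK1 and 1414 to 1493 CPM in DKK1 (log2 fold change -0.30), and Ccl6 had 424 to 529 CPM and 691 to 706 CPM (-0.53).

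Of 12 tested CXC chemokine ligands 3 were called higher and 1 lower. Ppbp, the platelet basic protein, had 133, 124 and 123 CPM in IL-13 + DKK1 and 50.7, 54.3 and 59.8 CPM in DKK1 (log2 fold change 1.21, SE 0.10, edgeR adjusted p = 2.43e-09). Its neighbour on chromosome 5, Pf4 (platelet factor 4), had 3920, 3843 and 3738 CPM in IL-13 + DKK1 and 2130, 2316 and 2504 CPM in DKK1, and was past the adjusted p only (0.73). Cxcl5, a neutrophil attractant of the same cluster, rose by 1.62 at under 5 CPM. Cxcl10, an interferon-induced T cell attractant, was the gene called lower (-1.26), with 1.18, 1.65 and 1.27 CPM in IL-13 + DKK1 and 4.26, 2.44 and 3.17 CPM in DKK1.

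Chemokine receptors were few and moved both ways, with 2 of 11 called higher and 2 lower, against 3.22% and 2.29% of all tested genes. The number called higher was 1 without IL-13 + DKK1 replicate 1, without DKK1 replicate 2 or without DKK1 replicate 3. Ccr3, the eotaxin receptor, had 17.7, 19.2 and 20 CPM in IL-13 + DKK1 and 5.38, 5.56 and 5.16 CPM in DKK1 (log2 fold change 1.82, SE 0.12). Ccr2, the receptor of inflammatory monocytes, had 16.9, 14.7 and 15.7 CPM in IL-13 + DKK1 and 49.0, 37.1 and 36.1 CPM in DKK1 (-1.37, SE 0.09). Ccr2 thus fell while Ccl2 and Ccl7, introduced above as genes of CCR2 ligands, rose.

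Surface receptors for sugars, lipids and microbes also divided. Of 21 tested C-type lectin receptors 5 were called higher, Mrc1 and Clec7a among them, and 1 lower. The gene called lower was Clec4n, the fungal receptor Dectin-2, with 71.9, 80.8 and 81.1 CPM in IL-13 + DKK1 and 343, 342 and 351 CPM in DKK1 (log2 fold change -2.14, SE 0.05, edgeR adjusted p = 3.71e-18). Its neighbour on chromosome 6, Clec4d, had 678 to 693 CPM in IL-13 + DKK1 and 1274 to 1318 CPM in DKK1 (-0.92, not called). Clec10a, a galactose-type lectin close in sequence to Mgl2, was past the adjusted p only (0.84). Of 18 scavenger and efferocytosis receptors Cd36, a receptor for oxidized lipids and fatty acids, was the only gene called, with 1235, 1172 and 1149 CPM in IL-13 + DKK1 and 414, 432 and 443 CPM in DKK1 (1.46, SE 0.05). Over all tested genes 5.51% were called in either direction, so a single call in this list is near that share. Stab1 had 3912 to 4122 CPM in IL-13 + DKK1 and 3424 to 3610 CPM in DKK1.

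Genes on the list of Toll-like receptors, which also holds the coreceptor gene Cd14, tended to be lower. Of its 16 tested genes 0 were called higher and 2 lower, against 3.22% and 2.29% of all tested genes. At the adjusted p 11 were lower, against 19.1% of all tested genes. Tlr2, which senses bacterial lipopeptides, had 146, 147 and 143 CPM in IL-13 + DKK1 and 396, 357 and 378 CPM in DKK1 (log2 fold change -1.38, SE 0.04, edgeR adjusted p = 1.63e-16). Cd14, the coreceptor for lipopolysaccharide, had 250, 291 and 269 CPM and 604, 594 and 604 CPM in the same groups (-1.15, SE 0.06). In both genes every IL-13 + DKK1 library was below every DKK1 library, as in 23.9% of all tested genes.

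Inflammatory cytokine genes did not move as a group. Of 31 tested genes of the NF-kB and lipopolysaccharide response 3 were called higher, Tnf and Il6 among them, and 5 lower, Il1b among them. Of 19 tested genes of the IL-1 family and the inflammasome 1 was called higher and 1 lower, against 3.22% and 2.29% of all tested genes. Il1b, the pyrogenic cytokine IL-1β, had 79.4, 110 and 97.5 CPM in IL-13 + DKK1 and 523, 510 and 510 CPM in DKK1, a log2 fold change of -2.43 (SE 0.12, edgeR adjusted p = 7.74e-13). Il1rl2, the IL-36 receptor chain, had 37.0, 31.7 and 35.1 CPM in IL-13 + DKK1 and 5.53, 6.52 and 6.07 CPM in DKK1 (2.52, SE 0.10). Il1rn, the antagonist of the IL-1 receptor, had 61.3 to 70.2 CPM in IL-13 + DKK1 and 45.4 to 53.2 CPM in DKK1 (0.42, not called). Tnf, tumor necrosis factor, rose with 13.8, 16.1 and 15.3 CPM in IL-13 + DKK1 and 5.92, 6.98 and 7.51 CPM in DKK1 (1.15, SE 0.10), against the direction of Il1b. Tnfsf14, the cytokine LIGHT, fell by 2.05 on the log2 scale.

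Of 16 tested guanylate-binding protein and immunity-related GTPase genes, which act against intracellular microbes and are induced by interferons, 0 were called higher and 7 lower, and their median log2 fold change was -0.82. Without DKK1 replicate 1 the number called lower was 4, and TREAT called 1. Gbp3 had 20.3, 19.4 and 22.3 CPM in IL-13 + DKK1 and 53.7, 46.7 and 46.7 CPM in DKK1 (-1.25, SE 0.08, edgeR adjusted p = 2.87e-11). Gbp2 (-1.11) and Gbp5 (-1.23) fell too. These genes are close copies, so reads may be shared between them. Of 32 type I interferon-stimulated genes 0 were called higher and 1, Cxcl10, was called lower, with 1 higher and 13 lower at the adjusted p and a median of -0.20. Over all tested genes 3.22% were called higher and 2.29% lower, with 20.2% and 19.1% at the adjusted p.

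Of 14 genes of MHC class II presentation 0 were called higher and 1 lower, with 3 higher and 7 lower at the adjusted p and a median log2 fold change of -0.28. Over all tested genes 3.22% were called higher and 2.29% lower, with 20.2% and 19.1% at the adjusted p. Ciita, the transactivator of the class II genes, had 5.47, 4.40 and 4.93 CPM in IL-13 + DKK1 and 20.8, 12.6 and 13.5 CPM in DKK1 (log2 fold change -1.67, SE 0.15, edgeR adjusted p = 9.74e-09). Cd74, the invariant chain, had 717, 567 and 546 CPM in IL-13 + DKK1 and 477, 328 and 390 CPM in DKK1 (0.61, not called).

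Matrix genes moved in both directions. Of 20 tested genes 2 were called higher and 3 lower, against 3.22% and 2.29% of all tested genes. Thbs1, the matricellular protein thrombospondin-1, had 442, 555 and 567 CPM in IL-13 + DKK1 and 2960, 2854 and 2779 CPM in DKK1, a log2 fold change of -2.46 (SE 0.16, edgeR adjusted p = 4.79e-11). Vcan, the proteoglycan versican, had 47.5, 42.3 and 41.8 CPM in IL-13 + DKK1 and 526, 435 and 450 CPM in DKK1 (-3.42, SE 0.13, edgeR adjusted p = 1.36e-14). Lox, the lysyl oxidase that crosslinks collagen, was called higher with 15.1, 12.3 and 15.3 CPM in IL-13 + DKK1 and 6.28, 5.90 and 4.05 CPM in DKK1 (1.39, SE 0.24). Tgfbi, a matrix protein induced by TGFβ, had 566 to 631 CPM in IL-13 + DKK1 and 987 to 1108 CPM in DKK1 and was past the adjusted p only. Among 19 metalloproteinases and inhibitors 1 was called higher and 1, Mmp8 (-1.08), was called lower, which is near the same shares. The gene called higher was Timp1, an inhibitor, with 49.5, 54.1 and 57.1 CPM in IL-13 + DKK1 and 11.4, 9.54 and 10.2 CPM in DKK1 (2.37, SE 0.12). Mmp14 had 507 to 547 CPM and 898 to 951 CPM in the same groups (-0.80, not called).

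Of 19 tested growth factors of repair 7 were called higher and 1, Vegfa, lower. Hbegf, heparin-binding EGF-like growth factor, had 2.72, 3.61 and 3.22 CPM in IL-13 + DKK1 and 0.483, 0.371 and 0.392 CPM in DKK1 (log2 fold change 2.93, SE 0.35, edgeR adjusted p = 5.05e-07). Pdgfc, a platelet-derived growth factor, had 24.6, 25.6 and 25.4 CPM in IL-13 + DKK1 and 10.1, 11.6 and 11.1 CPM in DKK1 (1.21, SE 0.09). In both genes every IL-13 + DKK1 library was above every DKK1 library, as in 25.3% of all tested genes. Of 15 coagulation and plasminogen genes 1 was called higher and 3 lower. F7, coagulation factor VII, rose by 1.79 and Serpinb2, an inhibitor of plasminogen activators, fell by 1.64 on the log2 scale, and Thbs1 and F5, coagulation factor V (-1.25), were the others called lower.

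Calls among glycolysis and lipid genes stand beside the share over all tested genes, of which 3.22% were called higher and 2.29% lower. Of 24 hypoxia and glycolysis genes 0 were called higher and 2 lower. Pfkfb3, which makes the activator of phosphofructokinase, had 60.6, 60.0 and 62.1 CPM in IL-13 + DKK1 and 327, 255 and 259 CPM in DKK1 (log2 fold change -2.20, SE 0.08, edgeR adjusted p = 4.53e-15), and Hif1a had 385 to 414 CPM and 609 to 662 CPM in the same groups (-0.64). Of 27 cholesterol and fatty acid synthesis genes 0 were called higher and 1 lower, but 20 were lower and 0 higher at the adjusted p, with a median of -0.48. The gene called lower, Scd1, a fatty acid desaturase, was under 1 CPM in each of the 6 libraries, and its call was lost without IL-13 + DKK1 replicate 1 or 3 or without any of the DKK1 replicates. Apoe, the apolipoprotein among the LXR targets, had 12567 to 13132 CPM in IL-13 + DKK1 and 19432 to 22072 CPM in DKK1 (-0.68).

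Of 17 tested antioxidant and iron genes 1 was called higher and 2 lower, against 3.22% and 2.29% of all tested genes. The transferrin receptor gene rose and the ferroportin gene fell. Tfrc, the transferrin receptor, had 304, 332 and 309 CPM in IL-13 + DKK1 and 90.5, 102 and 96.8 CPM in DKK1 (log2 fold change 1.71, SE 0.04, edgeR adjusted p = 2.42e-17). Slc40a1, the iron exporter ferroportin, had 31.9, 42.0 and 42.7 CPM in IL-13 + DKK1 and 88.9, 111 and 112 CPM in DKK1 (-1.41, SE 0.12). Fth1, a ferritin subunit, had 11438 to 12049 CPM in IL-13 + DKK1 and 13933 to 15316 CPM in DKK1 (-0.32). Gsr, the glutathione reductase of the same list, fell by 1.57 on the log2 scale.

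Genes of adhesion, fusion and nucleotide sensing completed the response. Of 17 integrin chains 3 were called higher and 1 lower, against 3.22% and 2.29% of all tested genes. Itgb3, the β3 chain of the vitronectin receptor, had 12.2, 16 and 14.7 CPM in IL-13 + DKK1 and 1.03, 1.48 and 1.37 CPM in DKK1 (log2 fold change 3.47, SE 0.15). Itgax, CD11c, had 125, 164 and 162 CPM in IL-13 + DKK1 and 52.4, 54.3 and 51.1 CPM in DKK1 (1.52, SE 0.10), and Itga4, a chain of the VCAM-1 receptor, fell by 1.14. Atp6v0d2, a proton pump subunit needed for fusion in osteoclasts, had 35.4, 45.8 and 45.7 CPM in IL-13 + DKK1 and 10.3, 10.3 and 12.7 CPM in DKK1 (1.94, SE 0.12). Of 17 purinergic and adenosine receptor and ectonucleotidase genes 2 were called higher and 3 lower. Cd38, an ectoenzyme that consumes NAD, had 33.7, 38.9 and 42.3 CPM in IL-13 + DKK1 and 94.7, 97.4 and 93.9 CPM in DKK1 (-1.31, SE 0.11), and the adenosine receptor genes Adora3 (-1.45) and Adora2a (-1.06) fell too, while Adora2b, another adenosine receptor gene, rose by 1.44. The call of Adora2a was lost without IL-13 + DKK1 replicate 2 or DKK1 replicate 3.

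The IL-13 effect in the presence of DKK1 was then set against that in its absence. The same rule called 757 genes higher (4.64%) and 569 lower (3.49%) with IL-13 over untreated BMDMs. Of the 525 genes called higher with DKK1 present, 294 were called higher without it too, which is 56.0% of the 525 and 38.8% of the 757, and 13 were called lower. Of the 373 called lower, 93 were called lower without DKK1, 24.9% of the 373 and 16.3% of the 569, and 7 were called higher. The test of the difference itself called 754 genes (4.62%), of which 346 (2.12%) had a more positive and 408 (2.5%) a more negative log2 fold change with DKK1 than without. Among the 525 genes called higher, the difference was positive in 106, negative in 25 and not called in 394, and among the 373 called lower it was negative in 97, positive in 1 and not called in 275.

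**Figure D4:**
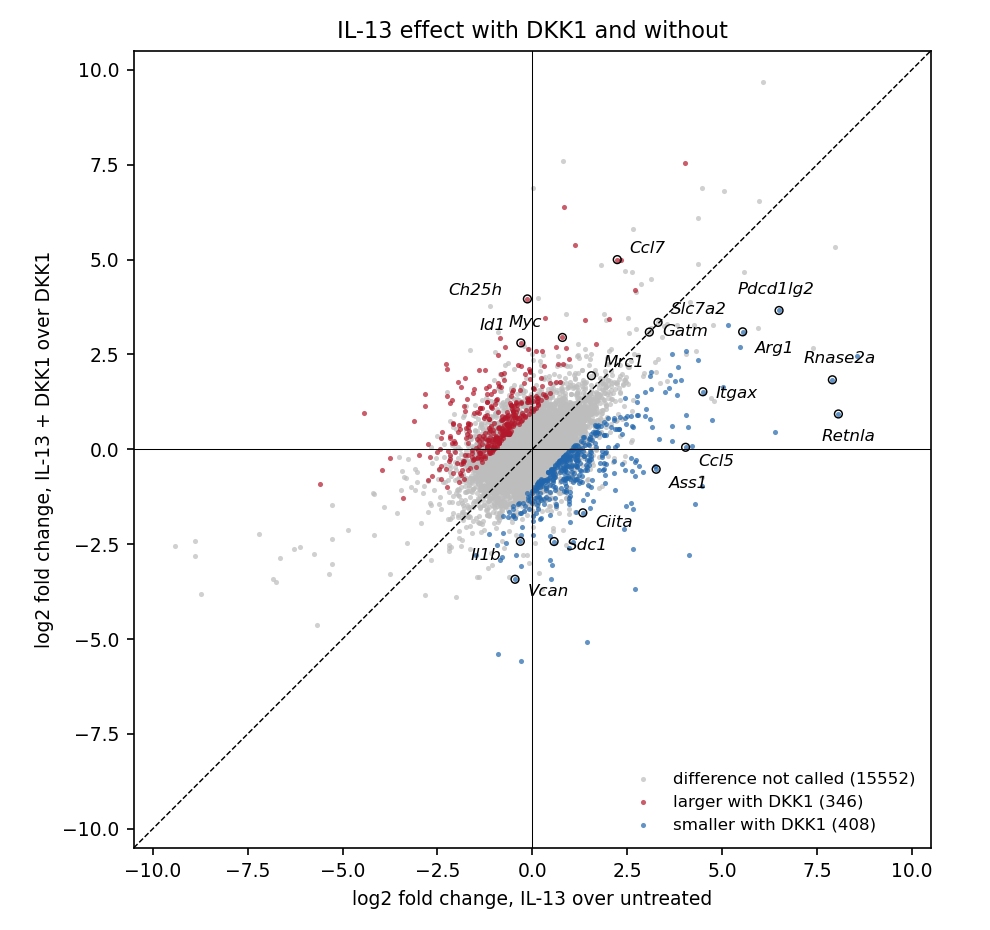
Each point is a tested gene, with the log2 fold change of IL-13 over untreated BMDMs on the x axis and that of IL-13 + DKK1 over DKK1 on the y axis; the dashed line marks equal effects. Red points are the 346 genes with a called positive difference and blue points the 408 with a called negative one, with Gatm and Slc7a2 on the line, Ccl7, Myc and Id1 above it, and Retnla and Rnase2a far below it.

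Gatm and Slc7a2 moved by like amounts in both settings. Gatm had a log2 fold change of 3.09 with DKK1 and 3.08 without, a difference of 0.00 (SE 0.07), and Slc7a2 had 3.34 and 3.31, a difference of 0.03 (SE 0.09). Mrc1 changed by 1.94 with DKK1 and by 1.56 without, and the difference of 0.38 was past the adjusted p but not the fold threshold. The same held for Chil3 (0.76), Clec7a (0.42) and Tfrc (-0.81), whose IL-13 effects thus differed by less than the fold threshold but past the adjusted p.

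In another set of genes the IL-13 effect was smaller with DKK1 than without. Arg1 had 625, 686 and 740 CPM with IL-13 and 6.85, 17.5 and 19.9 CPM untreated, so its log2 fold change was 5.54 without DKK1 and 3.10 with it, while its level was highest with both. Ccl5 had 52.0 to 78.6 CPM with IL-13 and 3.42 to 4.75 CPM untreated, and the difference of its IL-13 effects was -3.99 (SE 0.16, edgeR adjusted p = 2.2e-13). Ass1 had 25.2 to 35.6 CPM with IL-13 and 2.61 to 4.20 CPM untreated, with a difference of -3.79 (SE 0.20). Ccl5 and Ass1 already stood higher in DKK1, at the levels given above, than with IL-13 alone. Itgax reached 1011 to 1409 CPM with IL-13 and 50.7 to 57.7 CPM untreated, far above its level with IL-13 + DKK1, with a difference of -2.98 (SE 0.14). Ciita was higher with IL-13 alone (30.3 to 35.1 CPM against 11.5 to 14 CPM untreated) and lower with IL-13 in the presence of DKK1, a difference of -3.01. The 27 cholesterol and fatty acid synthesis genes had a median log2 fold change of -0.48 with DKK1 and 0.81 without. Without DKK1, 6 were called higher and 0 lower. Their difference was called negative in 17 and positive in 0, against 2.5% and 2.12% of all tested genes.

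Other genes responded more with DKK1 than without. Ccl7 had 3.98 to 5.25 CPM with IL-13 and 0.723 to 1.37 CPM untreated, and the difference of its IL-13 effects was 2.76 (SE 0.29, edgeR adjusted p = 2.2e-07). Myc had 31.7 to 34.1 CPM with IL-13 and 16.3 to 21.7 CPM untreated, with a difference of 2.15 (SE 0.16), and Ccnd1 had 74.2 to 77.8 CPM and 43.0 to 58.2 CPM, with a difference of 2.07 (SE 0.13). For Myc and Ccnd1 the lowest of the 4 levels was that in DKK1, and the level with IL-13 + DKK1 stayed below that with IL-13 alone. The 34 S phase genes did not share this larger response. Their median log2 fold change was 1.17 with DKK1 and 1.74 without, with 23 and 30 genes called higher. The difference was called positive in 0 of them and negative in 1. For the 31 mitosis genes the medians were 0.89 and 0.96, and 0 differences were called. Tnf was called in opposite directions, with a log2 fold change of -1.08 without DKK1 and 1.15 with it.

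**Figure D5:**
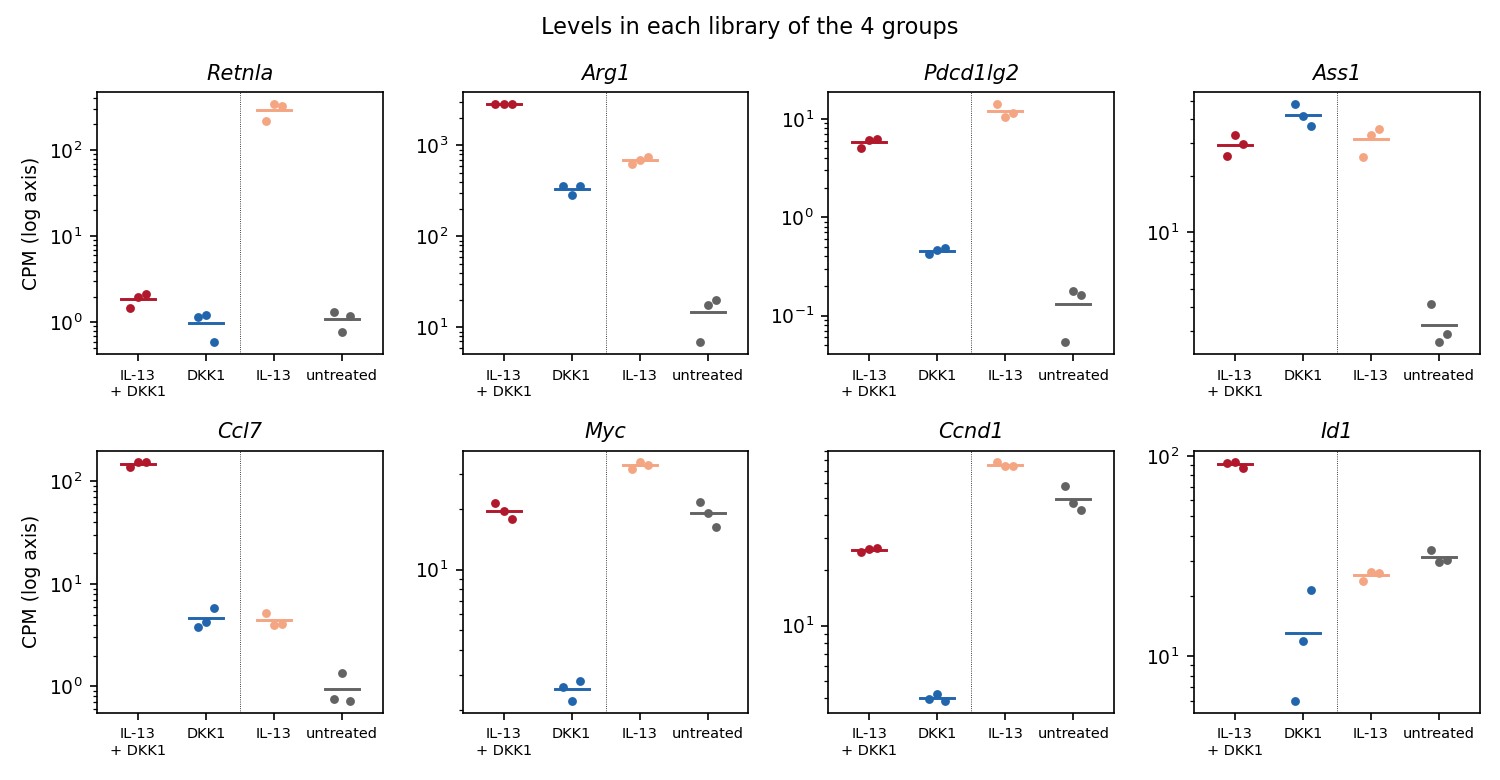
Each dot is the CPM of a library on a log axis, with bars at the means of 3 libraries, for IL-13 + DKK1 and DKK1 to the left of the dotted line and IL-13 and untreated to its right. Retnla is high with IL-13 alone (219 to 345 CPM) and near 1 CPM in DKK1 and untreated BMDMs, Arg1 and Ccl7 are highest with IL-13 + DKK1, and Myc and Ccnd1 are lowest with DKK1.

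The study drew 20 of the tested genes for its co-treatment comparison on these same libraries, so their counts are no independent evidence. The study compared co-treatment with IL-13 alone and with untreated BMDMs, while the counts here compare it with DKK1. They are therefore no check of what the study reported for these genes. Of these 20, 4 were called higher with IL-13 + DKK1 over DKK1 (Mrc1, Chil3, Timp1 and Arg1) and 2 lower (Il1b and Thbs1). Saa3, an acute phase protein gene that is not on that list, had 4529, 4104 and 4418 CPM in IL-13 + DKK1 and 5037, 4584 and 5120 CPM in DKK1 and was not called. The 4 tested DKK1 receptor genes gave 0 calls in either direction by edgeR and by DESeq2, with 2 higher and 0 lower at the adjusted p alone, the same number at an unadjusted p under 0.05, and log2 fold changes between -0.02 and 0.79.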

How the data were processed

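Per the study's methods and the labels, total RNA was prepared with a stranded, ribosome-depleted kit, reads went through FastQC 0.11.9 and STAR 2.7.6a on GRCm39, and the authors deposited raw counts made with featureCounts, whose version, annotation and strand setting no source used here gives. Overlapping, antisense and near-identical genes are therefore uncertain. The authors' own tests used DESeq2 1.30.0. Every deposited gene reached 11 counts in at least 1 library.

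From the deposited counts, edgeR 4.0.16 (R 4.3.3) fitted all 12 libraries with 1 mean per group, TMM factors, filterByExpr (minimum count 10, minimum total 15) and the quasi-likelihood test with Benjamini-Hochberg adjustment over 16306 genes. Calls used the study's own thresholds, an adjusted p of 0.05 and a log2 fold change of 1 in size. The difference of the IL-13 effects was a contrast of the same fit, and standard errors came from the fold change and the F statistic. The functions were tested on simulated data. Counts of 1 to 20 were even in 76.0% of cases and counts over 1000 in 51.6%, so low counts may not be independent reads. Counting intervals (exact binomial, 95%) and the floor of 3 counts cover counting error only. The intervals treat counts as independent, so they may be too narrow. Replicates of a group differed by a chi-square per gene of 4.32 to 10.0.

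The members and gene lists were chosen with earlier results of these data known. Named genes were those the paper names for its RNA seq, the called genes of largest change (mean of at least 100 counts, no overlap) or smallest p, for each list its most significant called and most abundant uncalled members, all members of the receptor, SOCS, alternative activation, transcription factor and resistin-like lists, and genes with a large difference between the IL-13 effects. Promoters came from GRCm39 at canonical GENCODE vM39 transcript starts, in place of a planned RefSeq table of an earlier build. Alternatives were other scaling factors (RLE, library size, upper quartile), other filters, DESeq2 1.42.0, TREAT, the adjusted p alone, a replicate block, the 6 libraries only, and each library left out. Results for a few genes are not reported here.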

Additional observations from a re-analysis of the deposited data

Results flagged for a closer look

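The results listed here are genes whose IL-13 effect with DKK1 differed from that without it by edgeR's test of the difference (adjusted p under 0.05 and a log2 difference above 1 in size). Values are log2 fold changes with DKK1 minus those without.

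Among genes of alternative activation the IL-13 effect was smaller with DKK1 for Retnla (-7.13), Rnase2a (-6.07), Pdcd1lg2 (-2.84), Arg1 (-2.45), Ear2 (-2.01) and Mgl2 (-1.87), and larger for Ch25h (4.09) and Flt1 (1.5). The feedback inhibitors Cish (-3.40) and Socs2 (-1.51) were on the smaller side. More negative effects with DKK1 were also found for Ccl5 (-3.99), Ass1 (-3.79), Ccl22 (-3.53), Itgax (-2.98), Nfil3, a basic leucine zipper factor (-2.25) and Saa3 (-1.54).

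Genes that fell in IL-13 + DKK1 over DKK1 and moved less, or the other way, with IL-13 alone were Ciita (-3.01), Sdc1 (-3.0), Vcan (-2.97), Il1b (-2.11), Thbs1 (-1.76) and Pfkfb3 (-1.43). The value for Vcan was -2.25 without IL-13 replicate 3, where its level was 6.38 CPM against 2.20 and 2.21 CPM in the other 2 libraries of that group.

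Genes that rose in IL-13 + DKK1 over DKK1 and rose less, or went the other way, with IL-13 alone were Hbegf (3.79), Id1 (3.10), Ccl7 (2.76), Tnf (2.23), Myc (2.15), Ccnd1 (2.07), Dusp4 (1.41) and Timp1 (1.4). Groups of 3 libraries were not tested for single outlying samples.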

How the results depend on the processing

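The counts of genes called moved by over 1.5 times under 2 alternatives. TREAT called 180 higher and 97 lower genes in IL-13 + DKK1 over DKK1, and 67 positive and 120 negative differences of the IL-13 effects. The adjusted p alone gave 3293 higher and 3115 lower genes, and 1961 positive and 2321 negative differences. Leaving out single libraries gave 479 to 542 higher, 351 to 388 lower, 290 to 380 positive and 364 to 458 negative. Same-numbered replicates of the 2 groups did not deviate together (correlations of -0.012, 0.0085 and -0.051), and the replicate block called 527 higher and 371 lower genes. The other alternatives with edgeR gave 420 to 592 higher and 258 to 389 lower genes, and DESeq2 gave 511 and 390.

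Of the 132 named genes, 2 changed direction, both near 0. Il4ra was at 0.0197 with library size only. Stat6 was at -0.0099 with RLE factors and with DESeq2, and at -0.0158 to 0.0114 without single libraries. The difference of the IL-13 effects turned for Gatm (-0.0153 with RLE factors, -0.0152 with DESeq2, -0.0693 to 0.0273 without single libraries) and for Slc7a2 (-0.0837 to 0.101 without single libraries). TREAT no longer called 26 of the genes and 5 of the differences. Mmp8, Adora2a, Retnlg, Scd1 and Zbtb46 lost their calls without single libraries, as given beside them. Rnase2a was called higher with library size only, DESeq2, the replicate block, or without IL-13 + DKK1 replicate 1 or DKK1 replicate 2. Depth limits Rnase2a, Ccl17 and Msx3, which hold 6, 11 and 4 counts in the DKK1 group.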
